A study of Mus musculus with 18 samples.

Results

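Kupffer cells are the macrophages that reside in the liver, and 10 genes that mark them in the mouse are described here across livers of mice given low-dose penicillin (LDP) or its controls. The genes were chosen by name, with earlier results of these data known: Cd5l, Timd4, Clec4f, Vsig4, C1qa, C1qb, C1qc, Marco, Cd163 and Folr2. All 10 were found by symbol in both deposited count tables, among 38924 gene IDs in the table of males and 23337 names in the table of females, and all 10 had enough counts to be tested in every comparison.

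RNA from the livers of 18 mice was sequenced, 1 library per mouse, in 6 groups of 3, and all mice were 8 weeks old and on a high-fat diet with 45% of its calories from fat. LDP males (mice 8, 10 and 11) and LDP females (mice 39, 52 and 54) were C57BL6J mice that had penicillin from birth. Control males (mice 5, 6 and 7) and control females (mice 29, 30 and 32) were C57BL6J mice without antibiotic, and in both treatments the mice were weaned at week 4 and fed the high-fat diet from week 6. LDP-microbiota recipients (mice 2, 5 and 8) and control-microbiota recipients (mice 1, 3 and 7) were germ-free Swiss Webster females colonised at week 3 with microbiota of LDP females or of control females, and received no antibiotic themselves. The recipients therefore differ from the C57BL6J females in strain and in early life without microbes together, and from LDP females in penicillin exposure as well. The labels name no cage, litter or donor animal, so mice of a group may share these, and p-values measure the spread between these mice only. Libraries held 70336366 to 74418889 counts in males and 17937005 to 28646168 in the table of females, of which the 10 genes took 27538 to 42072 and 11912 to 21510 counts per library. The 2 tables were counted separately and hold different sexes, so levels were not compared across them.

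Kupffer cells line the liver sinusoids, where they take up microbes, dying cells, lipoproteins and aged red cells from portal blood, and so stand at the first contact of the liver with products of the gut microbiota. Most descend from embryonic precursors and renew locally, and when they are lost, monocytes from blood fill the niche and take on Kupffer cell genes, Timd4 among the later ones. In this set, Clec4f, Vsig4, Timd4, Marco, Cd163 and Folr2 encode surface receptors, and Cd5l and the C1q genes encode secreted proteins. Clec4f is the lectin most restricted to Kupffer cells in the mouse, whereas C1q genes, Cd163, Folr2 and Marco are made by macrophages of other tissues too. In whole liver RNA, fewer cells of a type and less RNA per cell cannot be told apart.

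C1qa, C1qb and C1qc encode the 3 chains of C1q, the recognition molecule of the classical complement pathway, and lie next to each other on chromosome 4 of mm10 (GRCm38). RefSeq places C1qa at chr4:136895916-136898844, C1qb at chr4:136880126-136886200 and C1qc at chr4:136889801-136892936. Cd5l (chr3:87357881-87371074) encodes a protein secreted by macrophages that circulates with IgM, and Timd4 (chr11:46810786-46844333) a receptor for phosphatidylserine on dying cells. C1q chains and the pair Cd5l and Timd4 were the members whose levels moved most closely together between mice of a group (values with the variation between mice). The 250 bases before the start of C1qb, C1qc, Cd5l and Timd4 in the RefSeq promoter table (GRCm38.p6) are therefore printed, 5′ to 3′ along the gene. C1qa has no window there. For C1qc and Timd4 that start lies inside the gene interval given above, so the end of each window overlaps the gene. Capitals mark GAGGAA, the core bound by the macrophage factor PU.1, on either strand, so that the reverse strand reads TTCCTC.
C1qb, chr4:136886201-136886450, reverse strand: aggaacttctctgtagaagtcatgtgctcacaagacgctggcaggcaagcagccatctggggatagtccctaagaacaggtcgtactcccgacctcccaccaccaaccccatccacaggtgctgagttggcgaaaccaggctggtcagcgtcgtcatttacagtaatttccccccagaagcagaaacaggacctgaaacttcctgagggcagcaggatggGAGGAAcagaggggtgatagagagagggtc
C1qc, chr4:136892915-136893164, reverse strand: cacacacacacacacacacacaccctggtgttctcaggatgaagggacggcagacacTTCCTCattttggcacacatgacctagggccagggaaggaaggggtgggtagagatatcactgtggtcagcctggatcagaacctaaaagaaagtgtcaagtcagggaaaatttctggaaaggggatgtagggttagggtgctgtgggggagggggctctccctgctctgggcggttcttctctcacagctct
Cd5l, chr3:87357631-87357880, forward strand: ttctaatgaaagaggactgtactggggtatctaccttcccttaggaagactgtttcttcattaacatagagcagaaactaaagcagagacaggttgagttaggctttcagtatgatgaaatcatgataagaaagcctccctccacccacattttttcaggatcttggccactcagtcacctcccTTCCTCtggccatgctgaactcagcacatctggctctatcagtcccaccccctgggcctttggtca
Timd4, chr11:46810549-46810798, forward strand: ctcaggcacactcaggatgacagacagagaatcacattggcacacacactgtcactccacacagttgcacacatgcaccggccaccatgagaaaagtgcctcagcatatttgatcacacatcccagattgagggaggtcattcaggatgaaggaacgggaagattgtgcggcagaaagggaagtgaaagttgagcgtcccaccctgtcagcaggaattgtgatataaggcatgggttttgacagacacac
Positions are counted from the start of each window's gene in that table. The PU.1 core lies 30 to 25 bases before the start of C1qb, 193 to 188 before C1qc, on the other strand, and 66 to 61 before Cd5l, also on the other strand. It was present in 5 of 10 windows of the 9 members with a window, those of C1qb, C1qc, Cd5l, Marco and Vsig4, against 23.3% of 32851 promoter windows of the same length. The Timd4 window holds no match. This motif was kept after a wider look at motif strings, so its share among the members is a description and shows no enrichment. A match describes letters in a window and no bound site.

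Expressed per kilobase of gene length (CPM per kb, where CPM is the count as a share of the library total scaled by the trimmed mean of M values, TMM), the members spanned more than 10-fold within each group of males. Clec4f and Cd5l stood at the top, at 51.9 ± 5.36 and 45.5 ± 2.53 CPM per kb in LDP males and at 60.9 ± 9.01 and 60.005 ± 5.86 in control males (SD, n = 3 each), and their ranges overlapped in both groups. C1qa and C1qb followed, at 38.2 and 35.3 CPM per kb in LDP males and 46.3 and 42.9 in control males, also overlapping each other. C1qc and Vsig4, the complement receptor CRIg, formed the next overlapping pair, at 18.9 and 19.5 CPM per kb in LDP males and 22.6 and 21.5 in control males. Below them Folr2, a folate receptor, averaged 10.05 CPM per kb in LDP males and 12.7 in control males, and Cd163, the scavenger receptor for haemoglobin bound to haptoglobin, 6.13 and 7.71. Timd4 and Marco, a scavenger receptor with a collagen-like stalk, were lowest, at 3.68 and 3.11 CPM per kb in LDP males and 4.74 and 3.99 in control males, with ranges that overlapped.

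The order was similar in the table of females, with exceptions at the lower end. Cd5l and Clec4f had the highest means in all 4 groups of females, but the lower of them overlapped the C1q chain ranked next in each group. Cd5l averaged 98.3 ± 16.6 CPM per kb in LDP females and 99.5 ± 23.1 in control females. Among LDP females Marco stood eighth, at 16.5 ± 5.79 CPM per kb, with a range above and separate from that of Timd4 at 7.50 ± 1.07. Among control females Marco, at 8.71 ± 3.65 CPM per kb, overlapped both Cd163 at 10.06 ± 1.86 and Timd4 at 7.68 ± 1.71. In recipients Timd4, Marco and Cd163 could not be ordered beyond their spread.

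**Figure D1:**
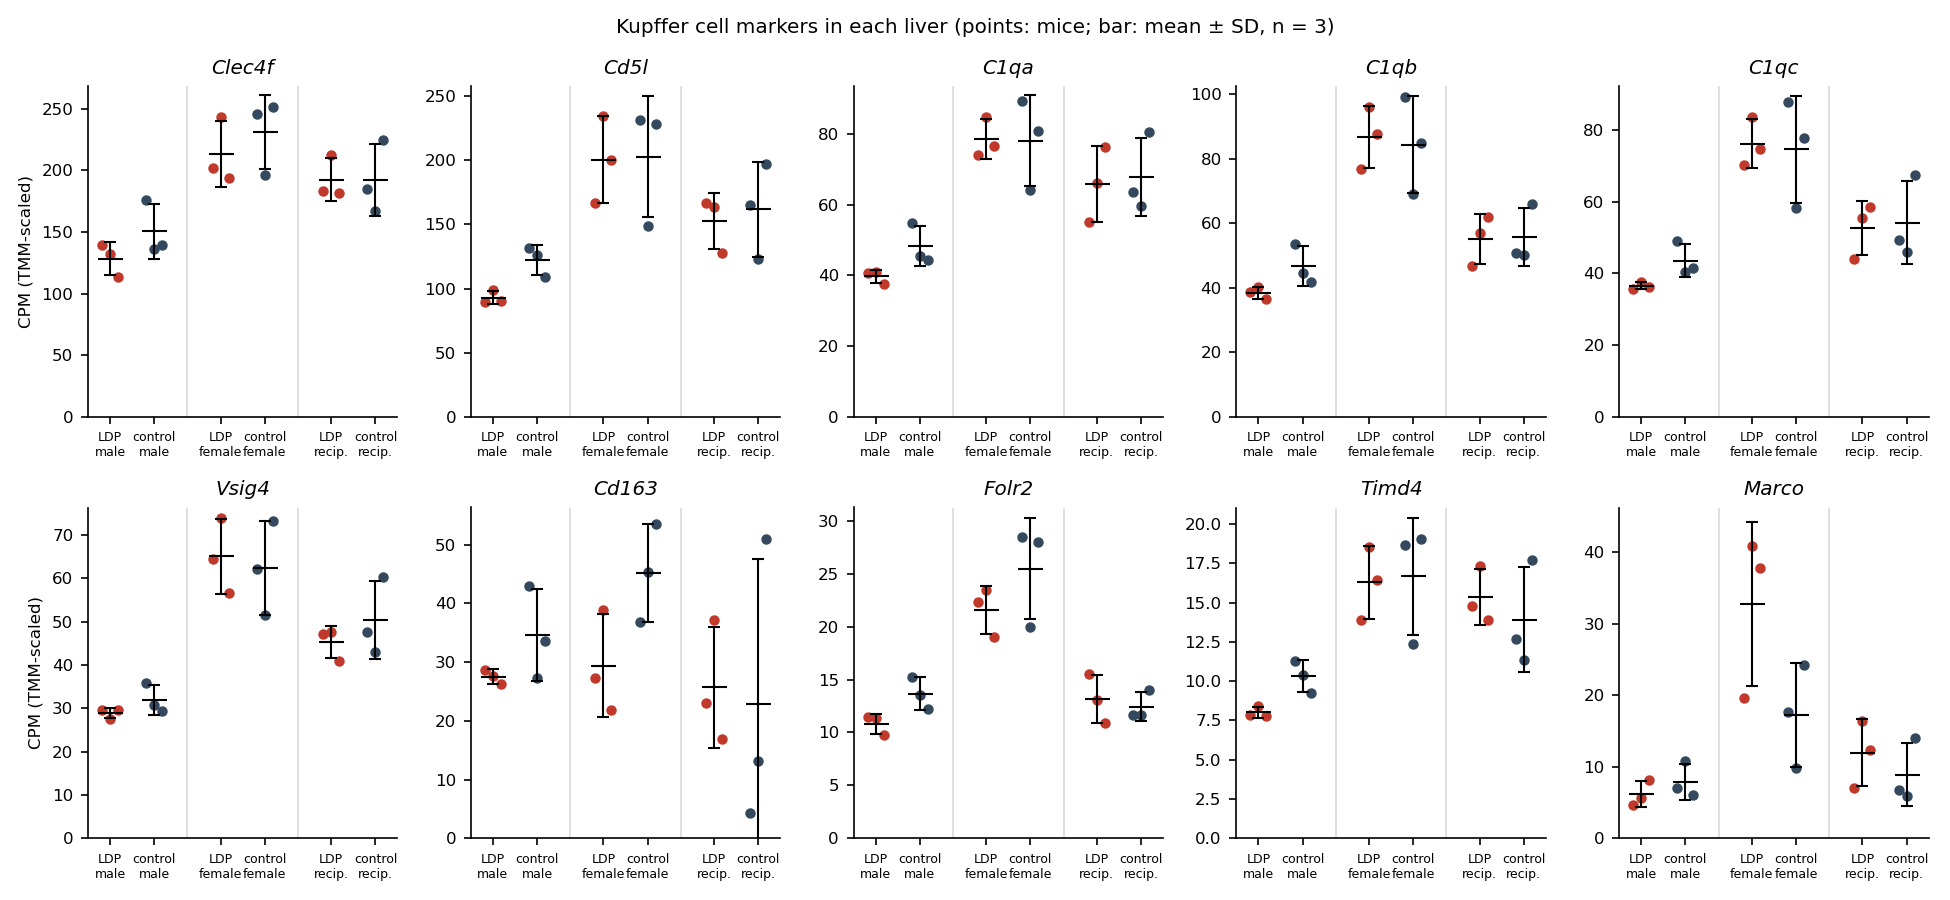
TMM-scaled CPM of the 10 Kupffer cell markers in each of the 18 mice on a linear axis, 1 panel per gene. In each panel LDP mice or LDP-microbiota recipients stand left of their controls. Points are mice, and bars are the mean with SD. In males 6 genes have all LDP mice below all controls, as do 4.84% of all genes, and none of the 10 passed edgeR's adjusted test. In recipients Cd163 spreads from 4.33 to 50.9 CPM among the controls.

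Whether penicillin from birth goes with a change of these genes in males was asked by setting LDP males against control males. All 10 markers had a lower mean in LDP males, with a median log2 change of -0.31, against 0.00 over all 15438 genes tested, of which 49.3% were lower. None passed edgeR's quasi-likelihood test after Benjamini-Hochberg adjustment over all genes, which called 1 gene lower (0.00648%) and none higher. At an unadjusted p under 0.05, 6 members were lower and none higher, against 2.06% and 3.17% of all genes, and DESeq2, run as an alternative, called 1 member lower, Cd5l, against 0.0259% of all genes lower and 0.246% higher. The same 6, namely Cd5l, Timd4, C1qa, C1qb, C1qc and Folr2, had every LDP male below every control male, as did 4.84% of all genes, and no member had the groups apart the other way, as did 5.69%. Members were correlated between mice of a group (median Pearson r of 0.65), so these counts are not of independent genes.

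Cd5l stood at 89.2, 98.7 and 90.5 CPM in LDP males 8, 10 and 11, against 132, 126 and 109 CPM in control males 5, 6 and 7. The highest LDP male lay below the lowest control male. The log2 change was -0.40 ± 0.0854 (SE; 95% interval -0.59 to -0.21), with an edgeR adjusted p of 0.871 and a DESeq2 adjusted p of 0.0289. Timd4 stood at 7.83, 8.40 and 7.79 CPM in LDP males and 11.3, 10.4 and 9.24 CPM in control males. Its groups did not overlap either, and its log2 change was -0.36 (95% interval -0.59 to -0.13; unadjusted p of 0.00582 and edgeR adjusted p of 0.920).

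The 3 C1q chains were lower by similar amounts. C1qa was measured at 40.6, 40.9 and 37.5 CPM in LDP males and 54.7, 45.5 and 44.5 CPM in control males, a log2 change of -0.28 (95% interval -0.48 to -0.08). C1qb was measured at 38.5, 40.2 and 36.4 CPM in LDP males and 53.7, 44.6 and 41.8 CPM in control males, a log2 change of -0.28 (-0.50 to -0.06). C1qc was measured at 35.7, 37.7 and 36.3 CPM in LDP males and 48.9, 40.3 and 41.5 CPM in control males, a log2 change of -0.25 (-0.44 to -0.06). For each chain control male 5 was the highest mouse, and the other control males lay nearer to the LDP males. Unadjusted p-values from edgeR were 0.0116, 0.0168 and 0.0138, with an adjusted p of 0.920 for each.

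Of the surface receptors, only Folr2 and, above, Timd4 separated the groups of males. Folr2 gave 11.4, 11.3 and 9.75 CPM in LDP males and 15.3, 13.6 and 12.2 CPM in control males (log2 change -0.33, 95% interval -0.58 to -0.09). Clec4f gave 139, 132 and 113 CPM in LDP males and 176, 136 and 139 CPM in control males (-0.23, -0.50 to 0.04). Vsig4 gave 29.6, 27.5 and 29.5 CPM in LDP males and 35.8, 30.7 and 29.3 CPM in control males (-0.14, -0.34 to 0.05). Clec4f and Vsig4, the lectin and the complement receptor, thus overlapped, and most of their distance came with control male 5: without it the log2 changes were -0.10 and -0.06.

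The scavenger receptors overlapped between the groups of males. Cd163 stood at 28.7, 27.6 and 26.3 CPM in LDP males and 42.9, 27.3 and 33.6 CPM in control males (log2 change -0.33, 95% interval -0.69 to 0.03). Control male 6 lay among the LDP males, and without control male 5 the log2 change was -0.15. Marco stood at 4.70, 5.61 and 8.20 CPM in LDP males and 7.01, 10.8 and 5.99 CPM in control males (-0.36, -1.04 to 0.32). Its highest LDP male exceeded 2 of the 3 control males, and without control male 6 the log2 change was -0.08.

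Taken per mouse as the mean of the 10 log2 levels against the control mean, LDP males stood at -0.30, -0.26 and -0.31 and control males at 0.16, -0.02 and -0.14. LDP males lay close together, and control male 5 held the highest value of 9 members. Without control male 5 the median log2 change of the members was -0.17, and without control male 7 it was -0.36. Summed CPM of the 10 genes ranged over 396 to 430.15 in LDP males and 466 to 577 in control males. The summed CPM of 8 hepatocyte genes ranged over 114080 to 123250 in LDP males and 97609 to 110600 in control males, also without overlap, though only Alb, the gene of serum albumin, separated the groups among the 8. The part of hepatocyte RNA in the lower marker levels was not tested.

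**Figure D2:**
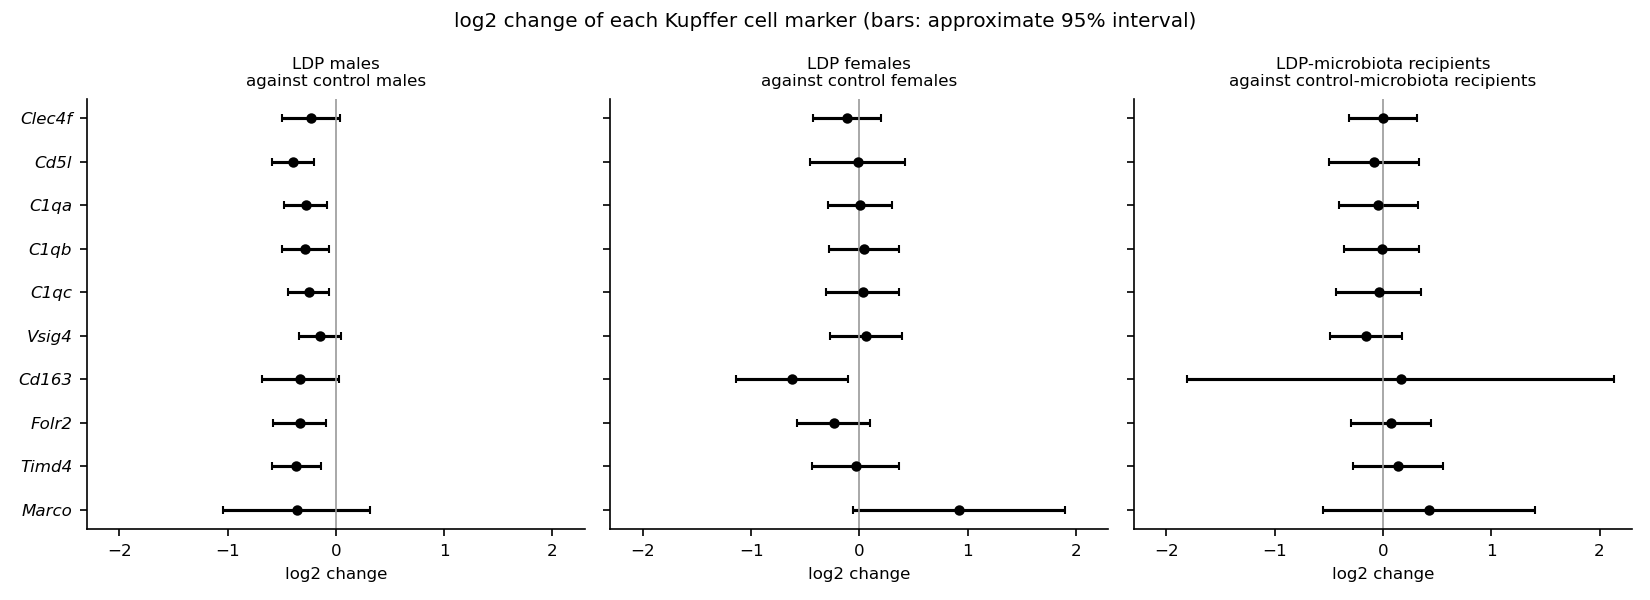
Log2 change of each Kupffer cell marker with its 95% interval from edgeR, in LDP males, LDP females and LDP-microbiota recipients, each against its own controls; the line at 0 means no difference. All 10 genes lie left of 0 in males, whereas females and recipients each have 5 genes on either side and the interval of Cd163 in recipients runs from -1.81 to 2.14.

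Penicillin from birth was compared in the same way in females. The markers had no common direction in LDP females, with 5 higher and 5 lower and a median log2 change of -0.00, while 49.1% of all 12914 genes tested were lower. No member passed edgeR's test, which called 0% of genes in either direction, and DESeq2, which called 0.101% of genes higher and 0.0155% lower, called none of them. At an unadjusted p under 0.05, 1 member, Cd163, was lower and none higher, against 1.82% and 2.69% of all genes, and no member separated the groups, against 4.15% of all genes lower and 4.97% higher without overlap.

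Cd163 stood at 27.3, 38.95 and 21.8 CPM in LDP females 39, 52 and 54, against 36.8, 45.4 and 53.5 CPM in control females 29, 30 and 32. LDP female 52 lay above control female 29, so the groups overlapped. The log2 change was -0.62 ± 0.223 (SE; 95% interval -1.14 to -0.10), with an unadjusted p of 0.0246 and an edgeR adjusted p of 0.999. Marco was higher on average, at 19.7, 40.9 and 37.9 CPM in LDP females and 17.7, 9.83 and 24.3 CPM in control females. LDP females 52 and 54 were above all controls and LDP female 39 lay among them, and the log2 change was 0.92 ± 0.403 (-0.06 to 1.90; unadjusted p of 0.0619). With each mouse left out in turn, the log2 change lay between -0.88 and -0.45 for Cd163 and between 0.63 and 1.25 for Marco. In the same livers, 4 of 4 mesothelial genes had higher means in LDP females, as did 50.9% of all genes. Of the mesothelial genes, 3 were higher without overlap, as were 4.97% of all genes. Their summed level was 7.83 to 20.4 CPM in LDP females and 4.53 to 5.62 CPM in control females. Stellate cell genes were also higher in LDP females for 5 of 6, and cholangiocyte genes for 4 of 5. In LDP males 4 of 4 mesothelial genes were higher too, 0 of them without overlap (median log2 change 0.72), while Marco was lower there, at -0.36. The part of mesothelium or its surroundings in the Marco values was not tested.

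Folr2 gave 22.3, 23.4 and 19.0 CPM in LDP females and 28.5, 19.97 and 28.0 CPM in control females (log2 change -0.24, 95% interval -0.57 to 0.10). Clec4f gave 202, 244 and 194 CPM in LDP females and 245, 196 and 251 CPM in control females (-0.11, -0.43 to 0.20). Vsig4 gave 64.4, 73.98 and 56.7 CPM in LDP females and 62.0, 51.5 and 73.2 CPM in control females (0.06). In each of these receptors the groups overlapped and control female 30 was the lowest control.

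Timd4, read at 13.9, 18.5 and 16.5 CPM in LDP females and 18.6, 12.4 and 19.0 CPM in control females, had a log2 change of -0.03. Cd5l, read at 167, 234 and 199.9 CPM in LDP females and 232, 148 and 228 CPM in control females, had one of -0.02 (95% interval -0.45 to 0.42). In both genes 2 control females stood high and control female 30 lowest of the 6 mice. The interval for Cd5l in females includes the value found in males.

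C1qa was at 74.03, 84.9 and 76.6 CPM in LDP females and 89.3, 64.2 and 80.7 CPM in control females (log2 change 0.01). C1qb was at 76.7, 96.0 and 87.6 CPM in LDP females and 99.1, 69.1 and 84.98 CPM in control females (0.04). C1qc was at 70.1, 83.7 and 74.7 CPM in LDP females and 87.7, 58.4 and 77.9 CPM in control females (0.03). Control female 29 was the highest and control female 30 the lowest mouse for each chain. Over the 10 members, the mean log2 level against the control mean was -0.15, 0.23 and -0.05 in LDP females and 0.13, -0.32 and 0.20 in control females, and control female 30 was lowest for 7 of 10.

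In recipients, the comparison asks whether microbiota of LDP females, without the antibiotic, goes with a change in germ-free hosts. The markers split 5 higher and 5 lower, with a median log2 change of -0.01 against -0.01 over all 12780 genes tested, of which 48.4% were higher and 51.6% lower. No member passed edgeR's test, which called 1 gene higher (0.00782%) and none lower. At an unadjusted p under 0.05 the count of members was 0, against 2.25% of all genes higher and 2.86% lower. No member separated the groups, against 6.13% of genes higher and 5.56% lower without overlap. DESeq2 gave no adjusted p for the 10 members here, and none had an unadjusted p under 0.05 in it.

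Cd163 varied most. It stood at 23.0, 37.1 and 17.0 CPM in LDP-microbiota recipients 2, 5 and 8, against 4.33, 13.2 and 50.9 CPM in control-microbiota recipients 1, 3 and 7, from 513, 689 and 463 counts and from 87, 296 and 1103 counts. Control-microbiota recipients thus held both the lowest and the highest mouse of the 6, with an 11.8-fold range between them. The log2 change was 0.16 ± 0.816 (SE; 95% interval -1.81 to 2.14; edgeR adjusted p of 0.979). It was 1.54 without control-microbiota recipient 7 and -0.33 without control-microbiota recipient 1. Marco stood at 7.08, 16.5 and 12.4 CPM in LDP-microbiota recipients and 6.72, 5.98 and 14.0 CPM in control-microbiota recipients (log2 change 0.43, 95% interval -0.55 to 1.41), and at 0.92 without control-microbiota recipient 7.

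Clec4f gave 183, 212 and 182 CPM in LDP-microbiota recipients and 185, 167 and 224 CPM in control-microbiota recipients (log2 change 0.00). Vsig4 gave 47.1, 47.6 and 41.0 CPM in LDP-microbiota recipients and 47.6, 42.9 and 60.4 CPM in control-microbiota recipients (-0.15). Folr2 gave 15.5, 13.1 and 10.9 CPM in LDP-microbiota recipients and 11.7, 11.6 and 14.0 CPM in control-microbiota recipients (0.08). Control-microbiota recipient 7 was the highest control for all 3 receptors, and the groups overlapped in each.

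Cd5l read 167, 164 and 127 CPM in LDP-microbiota recipients and 165, 123 and 197 CPM in control-microbiota recipients (log2 change -0.08). Timd4 read 14.8, 17.3 and 13.9 CPM in LDP-microbiota recipients and 12.7, 11.4 and 17.7 CPM in control-microbiota recipients (0.14). In both genes control-microbiota recipient 7 was the highest of the 6 mice and control-microbiota recipient 3 the lowest. For C1qa the levels were 55.1, 66.0 and 76.4 CPM in LDP-microbiota recipients and 63.5, 59.5 and 80.4 CPM in control-microbiota recipients (-0.04). For C1qb they were 46.7, 56.97 and 62.0 CPM in LDP-microbiota recipients and 50.7, 50.3 and 66.0 CPM in control-microbiota recipients (-0.01). For C1qc they were 44.0, 55.4 and 58.6 CPM in LDP-microbiota recipients and 49.2, 45.9 and 67.3 CPM in control-microbiota recipients (-0.04). All 3 chains had their lowest mouse in LDP-microbiota recipient 2 and their highest in control-microbiota recipient 7.

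**Figure D3:**
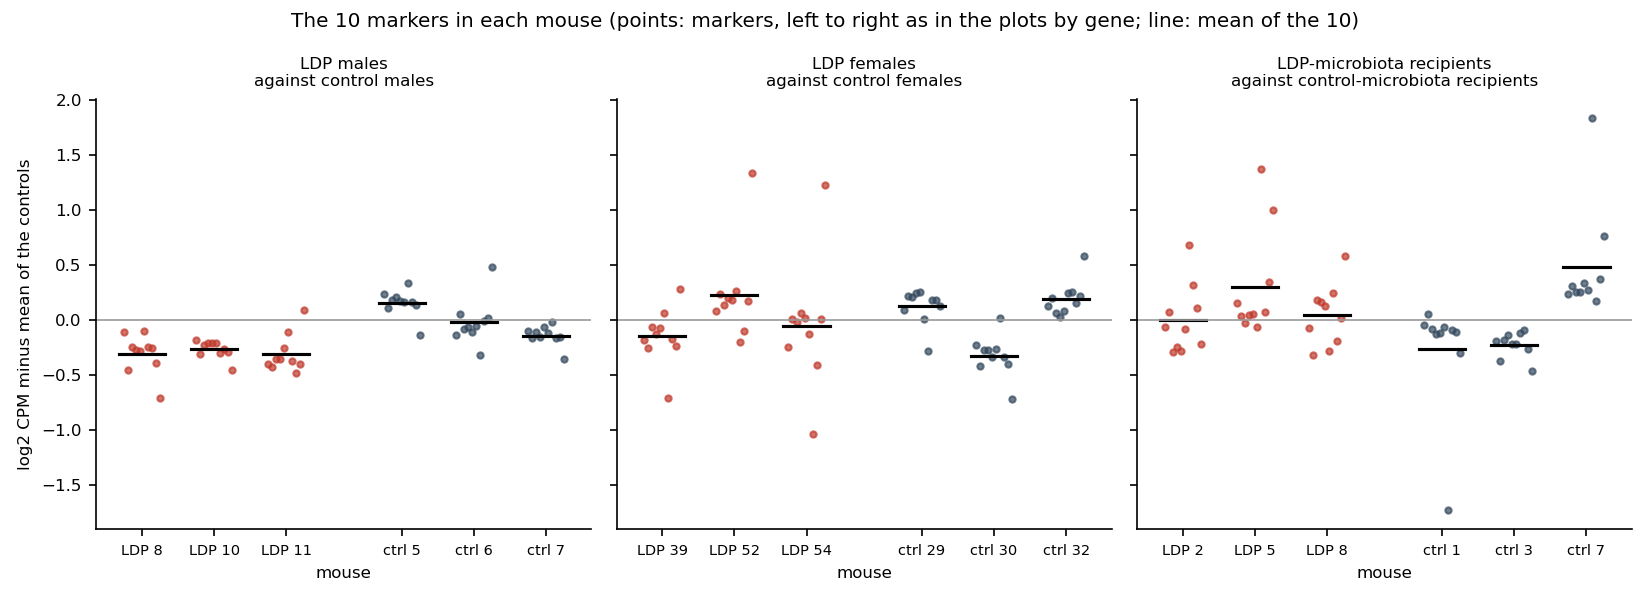
Log2 level of each Kupffer cell marker in each mouse, relative to the mean of the control mice of its comparison; points are the 10 markers of 1 mouse, the line is their mean, and LDP mice or LDP-microbiota recipients stand left of their controls. Means of LDP males lie between -0.31 and -0.26, and among recipients the highest mean is that of control-microbiota recipient 7, at 0.48.

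Whether the effect of penicillin differed between the sexes was tested as a difference of log2 changes in 1 model over names in both tables. Sex cannot be told apart here from the separate counting of the tables or from their different depth. The log2 change was higher in females than in males for 9 of 10 members, with 52.7% of all 12747 genes higher and 47.3% lower, and Cd163 was the exception at -0.29. No member passed the edgeR test of the difference (0% of genes called, adjusted p of 0.99994 for each), and DESeq2, which called 0.00784% of genes higher and 0% lower, called none. At an unadjusted p under 0.05, 1 member, Marco, was higher and none lower, against 1.48% and 1.22% of all genes. Its difference was 1.29 (95% interval 0.07 to 2.51; unadjusted p of 0.0398), from a log2 change of 0.92 in females and -0.36 in males. For Cd5l the difference was 0.39, with an interval of -0.11 to 0.89. The pattern of 10 lower members in males was therefore not shown to differ from the mixed pattern in females.

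The effect of the transferred microbiota was likewise set against that of penicillin in C57BL6J females. Of the 10 members, 4 had a higher log2 change in recipients and 6 a lower one, where 49.7% of all 13295 genes were lower. None passed the edgeR test of the difference, which called 0% of genes, and none had an unadjusted p under 0.05, against 2.99% of genes higher and 2.95% lower. DESeq2, which called 0.0376% of genes higher and 0.0527% lower, called none either. The widest interval was that of Cd163, at 0.80 (-1.38 to 2.98), and the smallest adjusted p was 0.792, for Folr2.

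Within groups the markers moved together from mouse to mouse. Over the 18 libraries, after each group's mean was subtracted from log2(CPM + 0.5), all 45 pairs of members correlated positively, with a median Pearson r of 0.65. The closest pairs were C1qa with C1qb and C1qa with C1qc, at 0.97 each, C1qb with C1qc at 0.96 and Cd5l with Timd4 at 0.93. The loosest pair was Marco with Folr2, at 0.18. Against the mean of the other 9, Timd4 was closest at 0.93, and Marco at 0.65, Folr2 at 0.57 and Cd163 at 0.52 were farthest. Single mice stood apart for most members: control male 5 was highest for 9, control-microbiota recipient 7 highest for 8 and control female 30 lowest for 7. The share of positive pairs among other genes was not computed. These libraries share their scaling and the cell makeup of each liver, so the coefficients are a description.

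The genes outside the set with the most similar pattern, out of 10387 compared over the 18 libraries, were Fcgr3, Fcgr4, Treml4, Slc11a1, Soat1, Dmpk, Slfn2, Ptgs1, Cfp, Gngt2, Pik3r5 and Igsf6. Their Pearson r with the mean of the 10 markers ranged between 0.87 for Igsf6 and 0.93 for Fcgr3, and Spearman's rho between 0.85 for Dmpk and 0.93 for Treml4. Fcgr3 and Fcgr4 encode receptors for IgG, Slc11a1 a metal transporter of the phagosome, Soat1 an enzyme that esterifies cholesterol, Ptgs1 cyclooxygenase-1 and Cfp properdin of the alternative complement pathway. Of the 50 most similar genes, 9 were in the lists of other Kupffer cell genes, pan-macrophage genes or macrophage transcription factors, which held 0.356% of the genes compared. The lists were chosen with earlier results of these data known, so this share is a description.

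**Figure D4:**
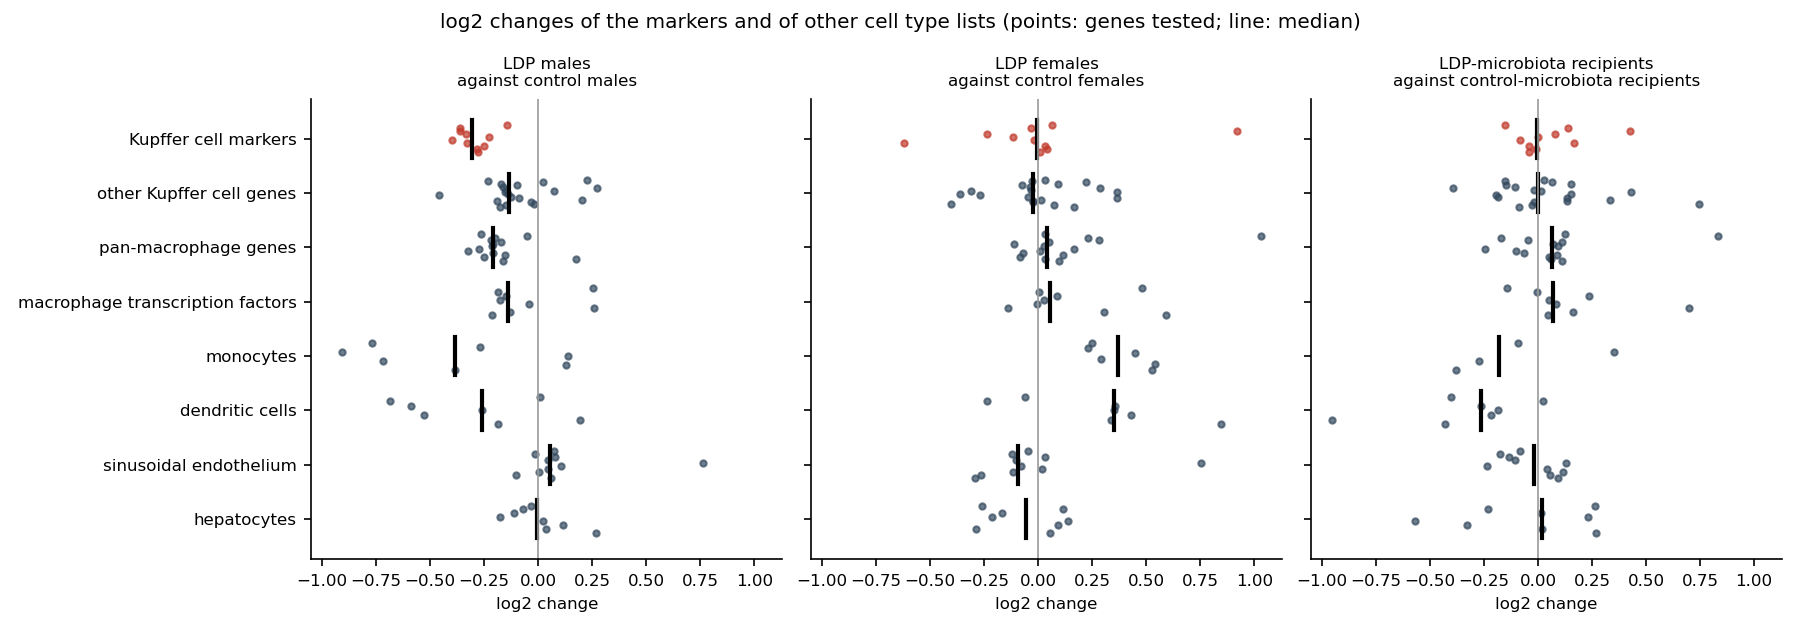
Log2 changes of the genes of the macrophage lists and of monocyte, dendritic cell, sinusoidal endothelial and hepatocyte genes, 1 point per gene with the median as a line, in LDP males, LDP females and LDP-microbiota recipients, each against its own controls. In males the markers have a median of -0.31, pan-macrophage genes -0.21 and other Kupffer cell genes -0.13, and in females and recipients the medians of these 3 lists lie near 0.

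Other macrophage genes were read from lists chosen with earlier results of these data known. No gene of any list passed edgeR's test in any of the 3 comparisons. Of 20 other Kupffer cell genes, 5 were higher and 15 lower in LDP males (median log2 change -0.13), 9 higher and 11 lower in LDP females (-0.02), and 10 each in LDP-microbiota recipients (-0.00). In males Slc40a1, the iron exporter ferroportin, went against the markers, at 236 ± 11.1 CPM in LDP males and 202 ± 8.94 CPM in control males (log2 change 0.22). Slc11a1 stood at 10.02 ± 0.0449 CPM in LDP males and 11.8 ± 0.446 CPM in control males (-0.23). In females the smallest unadjusted p-values of the list were those of Fcna, a ficolin, at -0.36, and Hpgd, which degrades prostaglandins, at -0.31. In recipients they were those of Kcna2, a potassium channel, at -0.39 and Clec1b, a lectin receptor, at 0.33.

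Genes shared by macrophages of many tissues were mostly lower in males. Of 14, 1 was higher and 13 lower in LDP males (median log2 change -0.21), with 4 lower without overlap, as were 4.84% of all genes, while 11 were higher and 3 lower in LDP females (0.04) and 9 higher and 5 lower in LDP-microbiota recipients (0.06). Ctss, a lysosomal protease, stood at 37.7 ± 4.73 CPM in LDP males and 47.2 ± 3.89 CPM in control males (-0.32). Lyz2, lysozyme, stood at 39.1 ± 1.64 CPM in LDP males and 45.5 ± 2.87 CPM in control males (-0.22), and had a log2 change of 0.28 in females. Ms4a7 stood at 1.39 ± 0.178 CPM in LDP females and 0.675 ± 0.0464 CPM in control females (1.03, unadjusted p of 0.00292, edgeR adjusted p of 0.987), and had a log2 change of 0.83 in recipients at under 1 CPM. Cybb, a subunit of the phagocyte NADPH oxidase, had one of -0.25 in recipients.

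Factors and signals that shape the Kupffer cell had medians nearer 0 in males than the markers. Of 8 macrophage transcription factors, 2 were higher and 6 lower in LDP males (median log2 change -0.14), and 6 were higher and 2 lower both in LDP females (0.06) and in LDP-microbiota recipients (0.07). Id3 had log2 changes of -0.22 in males and 0.59 in females, Spi1, which encodes PU.1, -0.18 in males, and Zeb2 0.48 in females and -0.15 in recipients. Of 10 niche genes, 2 were higher and 8 lower in LDP males (-0.08), 6 higher and 4 lower in LDP females (0.06) and 5 each in LDP-microbiota recipients (0.01). The Notch ligand Dll4 had log2 changes of 0.26 in males and 0.33 in females, the receptor Notch1 -0.29 in females and -0.26 in recipients, Acvrl1 -0.26 in males and Tgfb1 0.19 in recipients.

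Targets of LXR, a sterol-sensing receptor active in Kupffer cells and hepatocytes, numbered 7, with 4 higher and 3 lower in LDP males (median log2 change 0.13), 3 higher and 4 lower in LDP females (-0.01) and 1 higher and 6 lower in LDP-microbiota recipients (-0.18). Among them Lpcat3 had a log2 change of 0.19 and Abcg1 of -0.22 in males, Abcg8 of -0.16 and Abca1 of 0.07 in females, and Abca1 of -0.44 and Abcg1 of -0.28 in recipients. Of 6 partners of C1q in the classical pathway, made largely by hepatocytes, 1 was higher and 5 lower in LDP males (-0.02), 5 higher and 1 lower in LDP females (0.07) and 3 each in LDP-microbiota recipients (-0.02). C1ra had log2 changes of -0.11 in males and 0.09 in recipients, C2 of 0.08 in males and 0.27 in females, C3 of 0.17 in females and C4b of -0.59 in recipients. In males the C1q chains had log2 changes between -0.28 and -0.25, beside the median of -0.02 for these partners.

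Monocyte genes, which mark the cells that can replace Kupffer cells, summed to 8.50 to 14.6 CPM in LDP males and 11.7 to 15.1 CPM in control males, with 2 of 7 higher. They summed to 20.9 to 24.2 CPM in LDP females and 15.3 to 21.2 CPM in control females, with 6 of 6 higher, and to 10.7 to 11.6 CPM in LDP-microbiota recipients and 11.3 to 13.2 CPM in control-microbiota recipients, with 1 of 4 higher. These sums cover all 8 listed genes, also those with too few counts to be tested. Over the genes tested, 7, 6 and 4, the median log2 change was -0.39 in males, 0.37 in females and -0.18 in recipients. Several of them averaged under 1 CPM, such as Ly6c2 at 0.349 CPM in LDP males and 0.658 CPM in control males. Dendritic cell genes had medians of -0.26, 0.35 and -0.26 over 7 genes each, and in males they summed to 17.6 to 19.99 CPM in LDP males and 19.05 to 20.4 CPM in control males. Sinusoidal endothelial genes, of the cells on which Kupffer cells sit, summed to 588 to 609 CPM in LDP males and 469 to 626 CPM in control males, so that the ranges overlapped. The part of these cells in the marker levels was not tested.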

How the data were processed

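Per the labels' protocols, RNeasy Mini columns gave the RNA and TruSeq v2 the libraries; strandedness is not given in the sources used here. Per the submitters' processing notes, mm10, DESeq, featureCounts 1.4.3-p1, HTSeq 0.5.3p9 and STAR 2.3.0e were used, without stated roles. The authors deposited raw counts per gene, in a table of 6 males (Ensembl IDs with gene lengths) and one of 12 females (symbols). Of 38924 male IDs, 37607 (96.6%) were given symbols with GENCODE M21; 20058 names are in both tables. No 2 libraries of a group held identical counts.

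Genes were filtered with filterByExpr (minimum count 10, total 15), scaled by TMM and tested with edgeR 4.0.16 (quasi-likelihood, robust, R 4.3.3) within each pair of groups, and p-values adjusted by Benjamini-Hochberg over all genes, at 0.05. Each SE was taken from the F statistic and is approximate. Differences of effects were fitted with 1 coefficient per group. Scripts were tested on simulated data. DESeq2 1.42.0, other scalings and filters, and leaving out each mouse were the alternatives.

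CPM per kb used the deposited male-table lengths for both tables, and for females these were matched by symbol. Members and lists were chosen with earlier results of these data known. Of the lists, all members are named, and for macrophage lists the 2 genes of smallest p per comparison; the 12 non-members of highest r are named. A gene that this rule names is not reported here.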

Additional observations from a re-analysis of the deposited data

How the results depend on the processing

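No paired analysis was possible because the groups compared share no replicate numbers. In males, DESeq2 called 1 member, Cd5l, where edgeR called 0, and the direction of all 10 members was kept under RLE, upper quartile or plain library scaling, no filter, a mean of at least 1 CPM, a fit that was not robust, DESeq2 and leaving out any mouse. Leaving out each mouse, the member median lay between -0.36 and -0.17 in males, -0.16 and 0.07 in females and -0.10 and 0.15 in recipients, and 0 members were called in any comparison. With 2 mice against 3, members without overlap numbered 6 to 8 in males, 0 to 3 in females and 0 to 3 in recipients, where 15.2 to 32.9%, 15.3 to 21.4% and 18.9 to 27.4% of all genes did not overlap. Near 0, signs turned for Cd5l in females at 0.00016 with plain library totals, and in recipients for C1qb at 0.0040 with upper quartile factors and for Clec4f at -0.067 with plain totals and -0.0031 with a mean of at least 1 CPM. Leaving out each mouse gave, in females, -0.12 to 0.12 for C1qa, -0.090 to 0.17 for C1qb, -0.13 to 0.16 for C1qc, -0.20 to 0.10 for Cd5l, -0.21 to 0.072 for Timd4 and -0.062 to 0.20 for Vsig4. In recipients it gave -0.16 to 0.11 for C1qa, -0.10 to 0.14 for C1qb, -0.14 to 0.15 for C1qc, -0.33 to 1.54 for Cd163, -0.24 to 0.089 for Cd5l, -0.086 to 0.13 for Clec4f, -0.056 to 0.20 for Folr2 and -0.25 to 0.0055 for Vsig4. The cause of these turns was not tested. Over all genes, calls by DESeq2 and by edgeR numbered 42 and 1 in males, 15 and 0 in females and 28 and 1 in recipients, and 1 and 0 and 12 and 0 for the 2 differences of effects. Without LDP male 11, edgeR called 66 genes in males, none of them a member. With 3 mice a group, the intervals printed bound what these data can show. Strandedness and the treatment of reads shared between genes are not known, so overlapping genes could share counts.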

Other observations

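The balance of the C1q chains differed between the 2 kinds of female in the same table, a pattern chosen after its values were seen and not tested. The ratio of C1qb to C1qa, per kb, was 0.764 to 0.825 in the 6 Swiss Webster recipients (median 0.796) and 0.991 to 1.09 in the 6 C57BL6J females (median 1.045). The ratio of C1qc to C1qa was 0.413 to 0.452 in recipients and 0.490 to 0.531 in C57BL6J females. Neither range overlapped, and within each strain the LDP mice and their controls did overlap. In the 6 C57BL6J males the ratio of C1qb to C1qa was 0.898 to 0.939, and that of C1qc to C1qa 0.473 to 0.522. Males were counted separately, so sex and counting cannot be told apart, and their ratios are not ranked against those of females. How often ratios of other genes separate the 2 kinds of female was not computed. Strain, germ-free birth with colonisation, and experiment cannot be told apart here.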
